A study of Mus musculus with 2 samples.

Results

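*Mertk*, *Axl* and *Tyro3*, the TAM family of receptor tyrosine kinases, and *Gas6*, *Pros1* and *Mfge8*, secreted proteins that bridge phagocytes to dying cells, were followed across the cell types of the infarcted mouse heart. The set is 6 named genes of the 32285 in the deposited tables, picked by gene symbol as the family and its ligands. The study collected CD45+CD11b+CD64+ cells, a sort meant for mononuclear macrophages, from the infarct and border zones of mouse hearts 3 days after myocardial infarction (MI), and made 1 droplet-based single-cell RNA library each from CD40 KO mice and WT mice. Neither the mutant allele, the strain or the ages, nor how many mice went into each library, was given in the sources used here. With 1 library per genotype there is no replicate check and no test between genotypes. Every interval below is an exact 95% interval that covers counting error of unique molecular identifiers (UMIs) only.

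The TAM receptors do not touch a dying cell directly. GAS6 and protein S, the product of *Pros1*, carry vitamin K-dependent domains that bind phosphatidylserine on the dying cell and link it to the receptor, while MFGE8 makes the same bridge to alpha-v integrins. MERTK is the receptor best known for silent clearance of apoptotic cells by macrophages (efferocytosis), and in the infarcted heart it is known for the removal of dying cardiomyocytes; AXL is known as a receptor raised by interferon, which damps cytokine signalling. TYRO3 is known mainly from the nervous system and from dendritic cells.

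All 6 genes were found in the annotation of the mm10 build (GENCODE vM21). *Mertk* (ENSMUSG00000014361) lies at chr2:128698956-128802894 on the plus strand, with 19 exons in its first listed transcript. It overlaps the antisense gene *Gm14011*, whose reads could be told apart only if counting used strand, and the snoRNA gene *Gm23172* on its own strand. *Axl* (ENSMUSG00000002602) lies at chr7:25757273-25788705 on the minus strand and *Tyro3* (ENSMUSG00000027298) at chr2:119797733-119818104 on the plus strand. Of the ligands, *Gas6* (ENSMUSG00000031451, chr8:13465374-13494490, minus strand) overlaps *Tmem255b* on the other strand, while *Pros1* (ENSMUSG00000022912, chr16:62854307-62929346, plus strand) and *Mfge8* (ENSMUSG00000030605, chr7:79133768-79149060, minus strand), like *Axl* and *Tyro3*, overlap no other annotated gene. The 250 bases before the start of *Mertk*, *Axl*, *Gas6* and *Mfge8* are shown because *Mertk*, *Gas6* and *Mfge8* differed between the libraries and *Axl* between cell types in the results that follow. The sequences are RefSeq's (GRCm38.p6), from chr2:128698665-128698914 (plus strand), chr7:25788734-25788983 (minus strand), chr8:13494536-13494785 (minus strand) and chr7:79149061-79149310 (minus strand), written 5′ to 3′ on the gene's strand, with matches of the searched motifs on either strand in capitals.
Mertk: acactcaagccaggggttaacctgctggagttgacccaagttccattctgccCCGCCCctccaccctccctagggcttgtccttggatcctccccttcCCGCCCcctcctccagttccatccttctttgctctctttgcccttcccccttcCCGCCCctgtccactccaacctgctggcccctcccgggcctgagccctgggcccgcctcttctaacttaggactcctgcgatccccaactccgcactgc
Axl: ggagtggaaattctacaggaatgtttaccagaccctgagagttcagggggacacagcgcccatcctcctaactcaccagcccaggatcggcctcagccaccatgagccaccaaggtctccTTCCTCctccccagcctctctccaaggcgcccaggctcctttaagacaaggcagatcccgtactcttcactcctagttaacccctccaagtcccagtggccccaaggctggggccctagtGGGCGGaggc
Gas6: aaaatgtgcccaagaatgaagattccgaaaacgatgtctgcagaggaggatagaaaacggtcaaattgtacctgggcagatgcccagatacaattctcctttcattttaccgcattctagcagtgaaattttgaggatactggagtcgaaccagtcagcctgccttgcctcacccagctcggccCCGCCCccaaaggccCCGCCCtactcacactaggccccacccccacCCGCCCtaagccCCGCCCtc
Mfge8: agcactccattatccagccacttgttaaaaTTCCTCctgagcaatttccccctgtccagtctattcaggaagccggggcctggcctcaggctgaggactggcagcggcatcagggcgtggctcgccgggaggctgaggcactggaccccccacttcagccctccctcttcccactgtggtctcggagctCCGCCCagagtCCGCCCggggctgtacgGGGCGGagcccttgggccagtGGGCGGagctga

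All of the capitals are matches of 2 of the motifs searched. The GC box (GGGCGG, bound by the Sp1 family) matched in all 6 promoters, as it did in 32.7% of 32851 RefSeq promoters. The core of a PU.1 site (GAGGAA, PU.1 being the lineage factor of myeloid cells) matched in *Axl* and *Mfge8* and in 23.3% of all promoters. The gamma-activated site (TTCNNNGAA, bound by STAT dimers) matched only in *Pros1* among the 6, against 7.02% of all promoters. Neither the core of the interferon-stimulated response element (2.98% of all promoters) nor the direct repeat of the liver X receptor (0.0152%) matched in any of the 6 windows, which says only that these letters are not there.

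After filtering, 7404 of 8146 barcodes remained in the library labelled CD40 KO and 7249 of 10624 in the WT library, with medians of 5346.5 and 9353.5 UMIs per deposited barcode. The libraries shared 23 barcodes. The targeted gene *Cd40*, the receptor for CD40 ligand, had 15.2 CPM (UMIs per 1000000 UMIs of the cells summed; 687 UMIs) in the macrophage-like cells of the library labelled CD40 KO and 17.1 CPM (1109 UMIs) in those of WT, a log2 ratio of −0.17 (−0.31 to −0.03). *Cd40* transcript was therefore not lost in the library labelled CD40 KO, and since the altered part of the gene was not given, these 3′ counts do not check the label. Clustering without the 6 genes and *Cd40* gave 16 clusters. The macrophage-like class joined 5 of them: cluster 7 (*Fabp5*, *Gpnmb*, *Spp1*; *Trem2* lipid-associated-like macrophages), cluster 6 (*Vcan*, *Plac8*, *Met*), cluster 3 (*Ifit3*, *Rsad2*, *Klf2*), cluster 8 (*Top2a*, *Mki67*; cycling-like macrophages) and cluster 5 (*Scin*, not named further). Clusters 3 and 6 each joined states that a finer clustering separated, described further on, and are called by number. The limits of the class were set after the clusters were seen. The class held 2163 barcodes in the library labelled CD40 KO and 4151 in WT, and cluster 7 made up 12.9% of it in the library labelled CD40 KO, against 54.2% in WT, while cluster 6 made up 62.2% and 18.5%.

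Clusters kept out of the class were not alike in both libraries. Cluster 0 (*Mt1*, *Crip1*), unnamed and with a median of 3215 UMIs in the library labelled CD40 KO, held 58.1% of that library's barcodes and 0.235% of the WT library's, so cluster 0 and library cannot be told apart. By their own marker UMIs, 4301 of its 4303 barcodes in the library labelled CD40 KO passed a macrophage gate, and they were most of the 7195 barcodes that passed it there, against 6385 in WT. Cluster 4 (*H2-Eb1*, *Cd74*, *Cd209a*; MHC class II genes, unnamed) held 5.59% of barcodes in the library labelled CD40 KO and 17.3% in WT. Cluster 11 led with neutrophil genes (*G0s2*, *S100a9*), with medians of 24787.5 and 20122 UMIs, and held 2.54% of barcodes in the library labelled CD40 KO and 12.3% in WT. Clusters 2 and 13 were shallow. Neutrophil-like (cluster 10), endothelial-like (cluster 12), fibroblast-like (cluster 9), dendritic-like, B-like and T/NK-like cells were small clusters that the sort had left in.

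*Mertk* was widespread among macrophage-like cells and near background in neutrophil-like cells. Among the clusters of the class it was highest in cluster 3, at 111 CPM (interval 97.5 to 126) in the library labelled CD40 KO and 103 CPM (96.6 to 110) in WT. The lipid-associated-like macrophages stood at 64.8 CPM (interval 58.1 to 72.0) in the library labelled CD40 KO and 60.8 CPM (58.3 to 63.4) in WT. Cluster 3 thus lay above the lipid-associated-like macrophages in both libraries, with intervals that did not overlap, but the *Ifit3* cells of the finer clustering did not lie above them beyond counting error. Cluster 6 had 41.2 CPM in the library labelled CD40 KO and 50.6 CPM in WT, and the MHC class II cluster 22.7 and 32.1 CPM. Fibroblast-like cells had 16.0 CPM in the library labelled CD40 KO and 11.5 CPM in WT, and neutrophil-like cells 5.31 CPM (1 UMI) and 12.6 CPM (10 UMIs), intervals that overlapped each other within each library. The shallow cluster 2, outside the class, had 115 CPM (79.6 to 161, from 34 UMIs) and 146 CPM (90.4 to 223, from 21 UMIs). Its intervals overlapped those of cluster 3 and lay above those of the lipid-associated-like macrophages in both libraries.

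*Axl* was laid out differently from *Mertk*: it was highest outside the macrophages. Fibroblast-like cells had 169 CPM (interval 152 to 188) in the library labelled CD40 KO and 187 CPM (173 to 201) in WT, above every other cluster with at least 50 barcodes, and with 1.12% and 1.79% of the barcodes held 14.2% and 17.9% of all *Axl* UMIs. Among the sorted myeloid clusters cluster 3 (52.1 CPM in the library labelled CD40 KO and 50.3 CPM in WT) and the MHC class II cluster (47.2 and 55.5 CPM) led, and their intervals overlapped each other and those of cluster 5 (41.6 and 50.5 CPM). The lipid-associated-like macrophages had 17.0 CPM (interval 13.7 to 20.9) in the library labelled CD40 KO and 13.8 CPM (12.6 to 15.1) in WT. In WT this was below cluster 6 (26.7 CPM), while in the library labelled CD40 KO the intervals of these clusters overlapped (20.5 CPM for cluster 6).

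*Tyro3* was almost confined to fibroblast-like cells. They held 18 of its 25 UMIs in the library labelled CD40 KO and 33 of its 37 UMIs in WT, at 8.48 CPM (5.02 to 13.4) and 9.02 CPM (6.21 to 12.7). The macrophage-like class held 6 UMIs (0.133 CPM) in the library labelled CD40 KO and 1 UMI (0.0154 CPM) in WT, and 4 of those 6 lay in cluster 5. *Tyro3* was below the 10 CPM floor in the class, so no ratio is given.

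**Figure D1:**
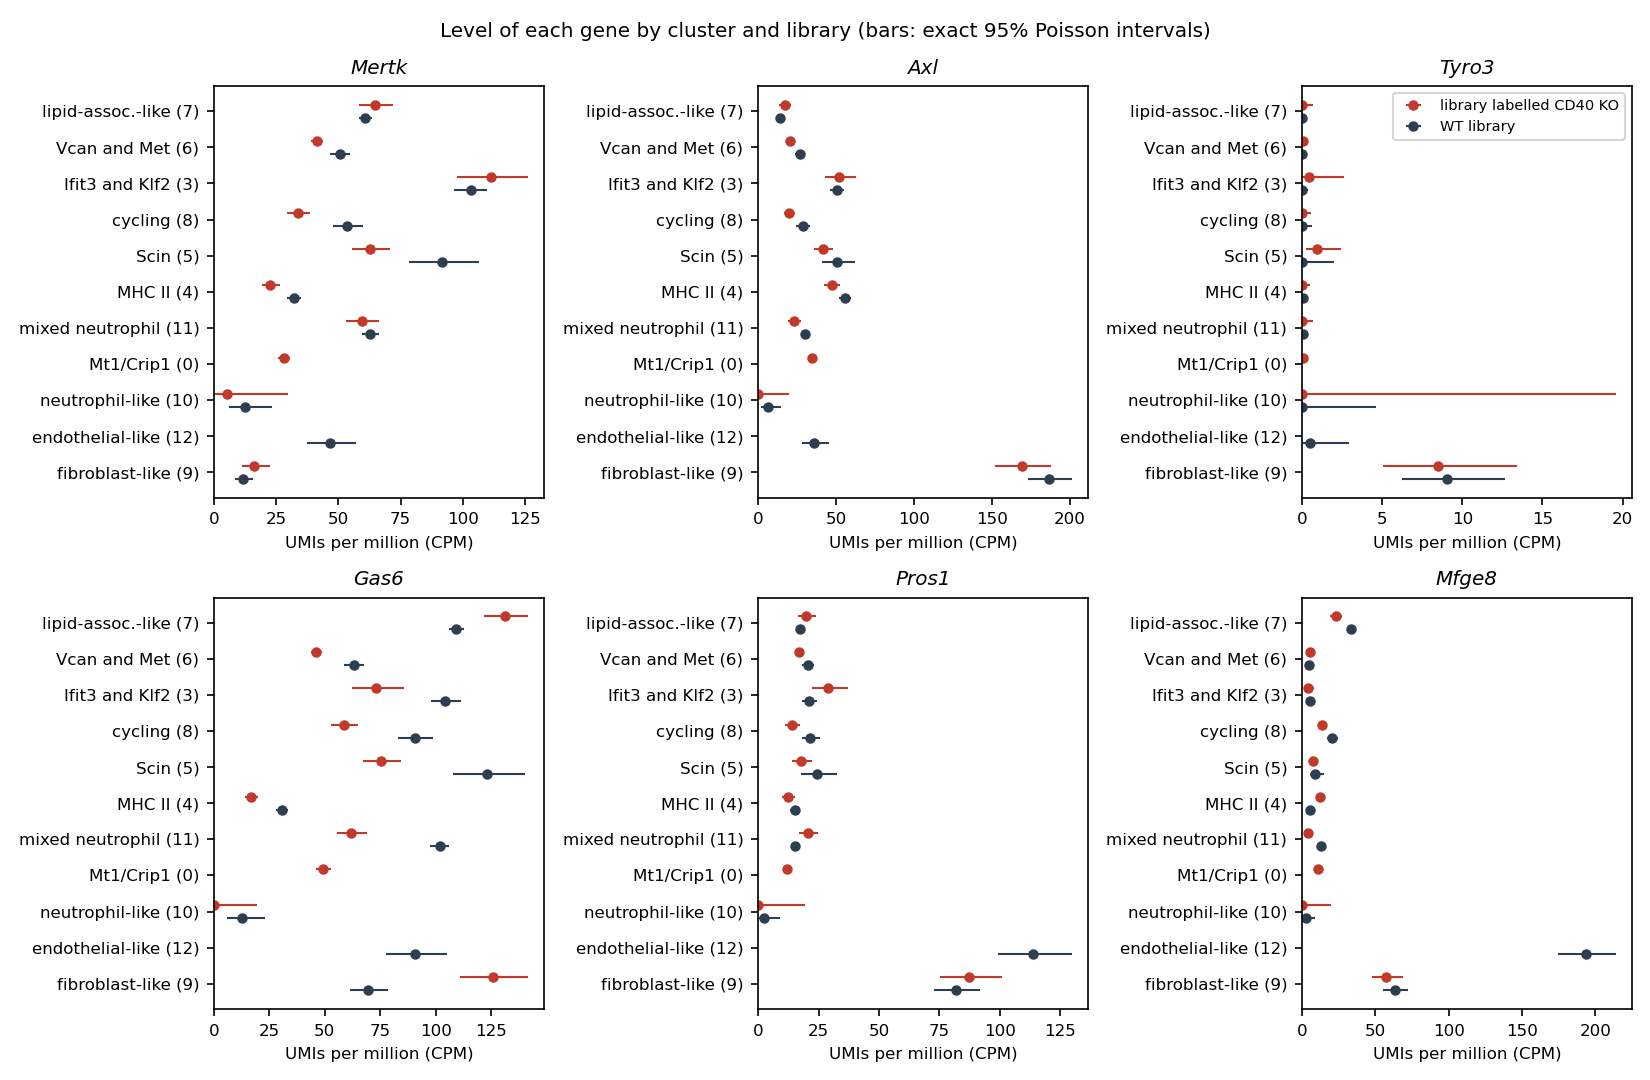
Level of each gene (x axis, CPM of the cluster) in 11 clusters (rows) of the library labelled CD40 KO (red, upper) and the WT library (dark blue, lower), with exact 95% Poisson intervals; points are left out where a library has fewer than 50 barcodes. *Axl* and *Tyro3* peak in fibroblast-like cells, *Mertk* is high in cluster 3, and *Mfge8* peaks in endothelial-like cells of WT.

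The balance of the receptor pair within one cell type can be read without the library's depth. The share of *Mertk* among *Mertk* plus *Axl* UMIs depends on how well each transcript is captured, so only its differences between cell types are described. Of 5 clusters, it was highest in the lipid-associated-like macrophages, at 79.2% (interval 75.1 to 82.9) in the library labelled CD40 KO and 81.5% (80.0 to 83.0) in WT. Cluster 6 had 66.8% and 65.4%, and cluster 3 68.1% and 67.2%. In the finer clustering, *Plac8* and *Ly6c2* cells from cluster 6 had 41.9% (interval 27.0 to 57.9) in the library labelled CD40 KO and 32.4% (18.01 to 49.8) in WT, and *Ifit3* cells 49.4% and 52.6%. The MHC class II cluster had 32.4% (interval 28.4 to 36.7) in the library labelled CD40 KO and 36.6% (34.0 to 39.3) in WT, and fibroblast-like cells 8.65% and 5.79%. The order from lipid-associated-like macrophages to fibroblast-like cells was the same in both libraries, and between libraries the intervals overlapped in each of these 5 clusters. Cluster 0 of the library labelled CD40 KO stood between them, at 44.8% (41.8 to 47.8). The shallow cluster 2, not among the 5, had 89.5% (75.2 to 97.1, of 38 UMIs) in the library labelled CD40 KO and 100% (83.9 to 100, of 21 UMIs) in WT. Finer cells led by *Fcrls* and *Selenop* had 81.4% (76.6 to 85.5) in the library labelled CD40 KO and 70.2% (67.8 to 72.5) in WT.

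*Gas6* was found across the macrophage-like clusters and in stromal cells. The lipid-associated-like macrophages had 131 CPM (interval 122 to 141) in the library labelled CD40 KO and 109 CPM (106 to 113) in WT. Cluster 3 had 73.2 CPM in the library labelled CD40 KO and 104 CPM in WT, and cluster 6 had 46.2 and 63.1 CPM. Among clusters with at least 50 barcodes in both libraries, the MHC class II cluster was the lowest apart from neutrophil-like cells, at 16.7 CPM (interval 13.9 to 19.96) in the library labelled CD40 KO and 30.5 CPM (27.8 to 33.3) in WT. Fibroblast-like cells had 126 CPM (interval 111 to 142) in the library labelled CD40 KO and 69.4 CPM (61.2 to 78.5) in WT, from 83 and 130 barcodes. Neutrophil-like cells held 0 *Gas6* UMIs in the library labelled CD40 KO and 10 UMIs in WT (12.6 CPM).

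*Pros1* and *Mfge8* were highest in the stromal cells that came along with the sort. *Pros1* had 114 CPM (99.1 to 130) in WT endothelial-like cells, which had only 12 barcodes in the library labelled CD40 KO, and in fibroblast-like cells 87.1 CPM in the library labelled CD40 KO and 81.7 CPM in WT. In the macrophage-like clusters it ran from 13.95 to 29.1 CPM in the library labelled CD40 KO and from 17.1 to 24.4 CPM in WT. *Mfge8* had 193 CPM (174 to 214) in WT endothelial-like cells and in fibroblast-like cells 57.5 CPM in the library labelled CD40 KO and 63.4 CPM in WT. Among the macrophage-like clusters *Mfge8* was highest in the lipid-associated-like one, at 23.1 CPM (interval 19.3 to 27.6) in the library labelled CD40 KO and 33.3 CPM (31.4 to 35.2) in WT, and did not exceed 13.6 and 20.6 CPM in the others.

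The mix of ligands differed between cell types, and in some of them between the libraries. *Gas6* made up 86.8% of *Gas6* plus *Pros1* UMIs in lipid-associated-like macrophages of the library labelled CD40 KO and 86.4% in WT. In fibroblast-like cells it made up 59.1% (interval 54.4 to 63.6) in the library labelled CD40 KO and 45.9% (41.7 to 50.2) in WT, and in WT endothelial-like cells 44.4%. Intervals of the libraries did not overlap for fibroblast-like cells, nor for cluster 3, at 71.6% (interval 65.1 to 77.4) in the library labelled CD40 KO and 83.3% (81.0 to 85.4) in WT, nor for cluster 11, at 75.1% (interval 70.7 to 79.1) in the library labelled CD40 KO and 87.0% (85.6 to 88.3) in WT. Finer states drawn mostly from cluster 3 differed among themselves. *Ifit3* cells had 59.2% (44.2 to 73.0) in the library labelled CD40 KO and 85.6% (79.9 to 90.1) in WT. Cells led by *Rgs1* and *Plk2* ran the other way, at 86.7% (78.4 to 92.7) and 71.9% (66.2 to 77.1). In cells led by *Fcrls* and *Selenop* the intervals overlapped, at 78.2% and 83.6%.

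**Figure D2:**
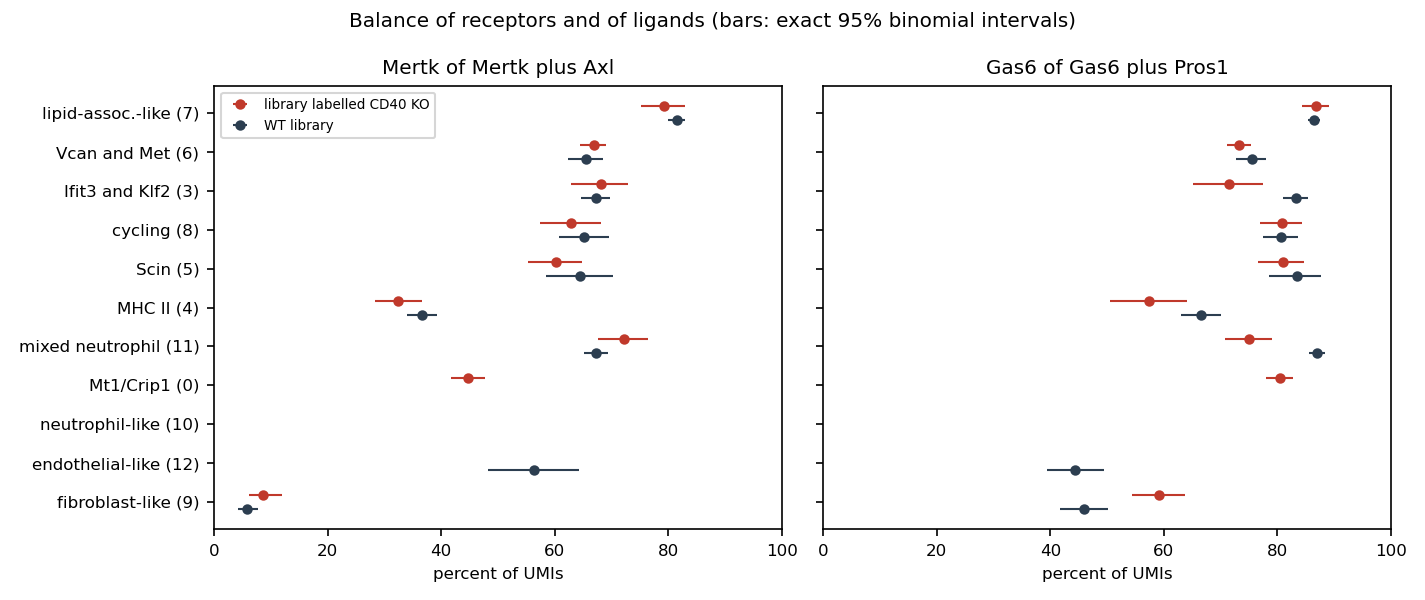
Share (x axis, percent of UMIs) of *Mertk* among *Mertk* plus *Axl* UMIs (left) and of *Gas6* among *Gas6* plus *Pros1* UMIs (right) by cluster (rows) in the library labelled CD40 KO (red, upper) and the WT library (dark blue, lower), with exact 95% binomial intervals; points with few UMIs or fewer than 50 barcodes are left out. The *Mertk* share is lowest in fibroblast-like cells, at 8.65% in the library labelled CD40 KO and 5.79% in WT.

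Shares of barcodes with a UMI were compared at an equal depth of 3000 UMIs drawn from every barcode; 50 and 131 class barcodes were too shallow for this. *Mertk* was then seen in 11.5% (10.2 to 12.9) of class barcodes in the library labelled CD40 KO and in 15% (603 of 4020; 13.9 to 16.1) in WT, against 41.9% and 44.7% before thinning, at median depths of 15958 and 12752 UMIs. *Gas6* was seen in 12.4% (10.98 to 13.8) of thinned class barcodes in the library labelled CD40 KO and in 18.8% (17.6 to 20.02) in WT, against 36.0% and 45.2% before thinning. For both genes the thinned share was lower in the library labelled CD40 KO, with intervals apart. For *Axl* the thinned shares were 5.40% and 6.89% (25.8% and 21.6% before thinning), and for *Pros1* 5.21% and 5.27% (24.3% and 21.4%).

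Neutrophil-like cells, taken as the type that should lack these genes, gave the background of free RNA. With medians of 2949 and 2379 UMIs before thinning, *Mertk* was seen in 1 of 28 thinned barcodes in the library labelled CD40 KO and in 4 of 76 in WT (5.26%), and *Gas6* in 0 of 28 in the library labelled CD40 KO, which allows a share of up to 10.7%, and in 5 of 76 in WT (6.58%). *Mfge8* was seen in 1.56% of thinned class barcodes in the library labelled CD40 KO and in 2.71% in WT (9.29% and 9.80% before thinning), close to the 2 of 76 neutrophil-like barcodes of WT (2.63%), so its class shares cannot be told from background at this depth. *Axl* was seen in 0 of 28 and 1 of 76 neutrophil-like barcodes and *Pros1* in none.

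The libraries were compared within the macrophage-like class, where a gene counted as higher or lower at a difference of at least 1.3-fold and a mean of at least 10 CPM. *Mertk* had 48.3 CPM (interval 46.3 to 50.3) in the library labelled CD40 KO and 65.0 CPM (63.1 to 67.0) in WT, a log2 ratio of −0.43 (−0.51 to −0.36). *Gas6* had 62.0 CPM in the library labelled CD40 KO and 98.4 CPM in WT (−0.67, −0.73 to −0.60), and *Mfge8* 8.98 and 22.0 CPM (−1.30, −1.46 to −1.14). *Axl* had 23.4 CPM in the library labelled CD40 KO and 23.8 CPM in WT (−0.02, −0.14 to 0.09), and *Pros1* 17.5 and 18.9 CPM (−0.11, −0.25 to 0.02). Thus 3 of the 5 measured members were at least 1.3-fold lower and 0 were higher, where 11% of the 7592 genes measured in the class were that much lower and 21.9% higher, with a median log2 ratio of 0.10. *Mfge8*, counted among the 3 lower, passed the 10 CPM floor only through its level in WT. Stromal transcripts in the class were sparse: the fibroblast marker list (8 of 8 genes detected) summed to 32.5 CPM in the library labelled CD40 KO and 13.5 CPM in WT, and the endothelial list (8 of 8) to 9.73 and 13.7 CPM. Their part in these ratios was not tested.

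The class differs in make-up between the libraries, and the ratios differ within it. In lipid-associated-like macrophages *Mertk* had a log2 ratio of 0.09 (−0.08 to 0.25), *Axl* 0.30 (−0.04 to 0.62), *Gas6* 0.27 (0.15 to 0.38) and *Pros1* 0.22 (−0.09 to 0.52), and 1 of the 5, *Mfge8* (−0.52, −0.80 to −0.26), was past 1.3-fold, where 7.9% of genes measured there were that much lower. In the finer state led by *Lpl*, *Fabp5* and *Gpnmb*, 96.0% of it from cluster 7, *Mertk* stood at 0.19 (0.02 to 0.35). *Axl* stood at 0.43 (0.09 to 0.77) there, past 1.3-fold, *Gas6* at 0.19 (0.07 to 0.31) and *Mfge8* at −0.66 (−0.95 to −0.38). Shares over all genes were not counted for finer states. In cluster 6 *Axl* (−0.39) and *Gas6* (−0.45, −0.58 to −0.32) were at least 1.3-fold lower, as were 9% of genes. *Mertk* (−0.30) and *Pros1* (−0.28) were lower by less. The intervals of these 4 measured members lay below 0, but the share of all genes with such an interval was not counted. In the *Areg* and *Met* cells of cluster 6 alone, the intervals of *Mertk* (0.09, −0.10 to 0.29), *Axl* (−0.24, −0.49 to 0.02) and *Pros1* (−0.26, −0.55 to 0.04) included 0. *Gas6* stood at −0.17 (−0.34 to −0.003) in those cells, within 1.3-fold. In the *Plac8* and *Ly6c2* cells of cluster 6 *Gas6* stood at 0.42 (−1.18 to 2.44), from 18 and 4 UMIs. These states did not cover all of cluster 6. In cycling-like macrophages all 5 measured members were at least 1.3-fold lower, with log2 ratios between −0.67 (*Mertk*) and −0.52 (*Axl*), where 13.2% of genes were; the cluster had 180 and 211 barcodes. In cluster 3 *Mertk* (0.11) and *Axl* (0.05) were within 1.3-fold, *Gas6* was lower (−0.51, −0.77 to −0.27; 17% of genes) and *Pros1* higher (0.47, 0.03 to 0.89; 21.6% of genes). In cluster 5, 3 of the 4 measured members (*Mertk*, −0.55; *Gas6*, −0.71; *Pros1*, −0.46, −1.01 to 0.11) were lower by that limit, as were 16.1% of genes.

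*Gas6* was the member whose direction held most widely outside the lipid-associated-like cells. Its interval lay below 0 in 6 of the 7 clusters compared, including the MHC class II cluster (−0.86, −1.16 to −0.58; 16.2% of genes at least 1.3-fold lower) and cluster 11 (−0.72, −0.89 to −0.55; 15% of genes), both outside the class, and above 0 in lipid-associated-like macrophages. How many other genes had intervals below 0 in as many clusters was not counted. *Mertk* was also lower in the MHC class II cluster (−0.50, −0.76 to −0.25) and within its counting error in cluster 11 (−0.08, −0.26 to 0.10). Cluster 11 also had lower *Axl* (−0.41, −0.70 to −0.12) and higher *Pros1* (0.44, 0.11 to 0.76), where 22.9% of genes were at least 1.3-fold higher. In cluster 11 the neutrophil marker list (10 genes) summed to 4925 CPM in the library labelled CD40 KO and 3605 CPM in WT, against 537 and 463 CPM in the class. Whether those transcripts bear on the ratios of cluster 11 was not tested.

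**Figure D3:**
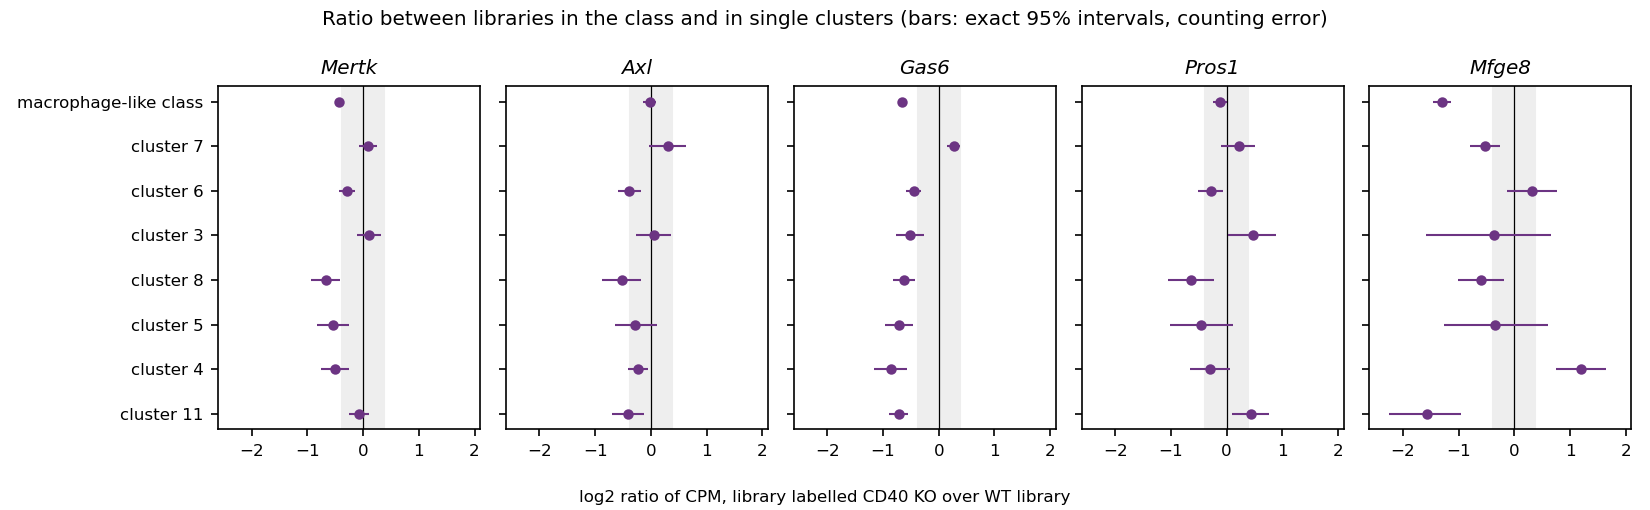
Log2 ratio of CPM (x axis; library labelled CD40 KO over WT library) of the 5 measured genes in the macrophage-like class and in 7 clusters (rows), with exact 95% intervals for counting error; the grey band marks differences under 1.3-fold. *Gas6* lies left of 0 in every row except cluster 7.

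The ratios depended on how the clusters were weighted. With the WT levels of each cluster kept and only the clusters' shares of UMIs set to those of the library labelled CD40 KO, *Mfge8* would differ by −1.04 on the log2 scale, *Gas6* by −0.30, *Mertk* by −0.15, *Pros1* by 0.12 and *Axl* by 0.27. With the 5 clusters given equal weight, the log2 ratio was −0.20 for *Mertk*, −0.17 for *Axl*, −0.35 for *Gas6*, −0.10 for *Pros1* and −0.44 for *Mfge8*, which leaves *Mfge8* alone past 1.3-fold. With cluster 0 counted into the class, *Mertk* stood at −0.61, *Gas6* at −0.75 and *Axl* at 0.16. In cluster 0 itself *Mertk* had 28.04 CPM (25.6 to 30.6), *Axl* 34.6 CPM (31.9 to 37.5), *Gas6* 49.2 CPM, *Pros1* 11.97 CPM and *Mfge8* 10.8 CPM, beside a fibroblast marker list at 312 CPM, against 32.5 CPM in the class of the same library.

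*Mfge8* UMIs were concentrated in few barcodes, so its counting intervals are too narrow. In the class, 22 of 2163 barcodes in the library labelled CD40 KO and 34 of 4151 in WT held 50% of its UMIs, with up to 36 and 91 UMIs in 1 barcode. In lipid-associated-like macrophages just 2 barcodes held 50% of the 124 *Mfge8* UMIs in the library labelled CD40 KO, where 13.6% of barcodes had a UMI, against 24 barcodes and 12.6% in WT. *Mertk* was spread over more cells: 180 barcodes in the library labelled CD40 KO and 380 in WT held 50% of its UMIs. For *Gas6* these were 144 and 379 barcodes. In the MHC class II cluster 10 of 414 barcodes held 50% of the 124 *Gas6* UMIs in the library labelled CD40 KO, against 44 of 1255 in WT. The intervals treat UMIs as independent, so those of other members are also too narrow where few barcodes hold many UMIs. Class barcodes with at least 3 *Mfge8* UMIs (18 in the library labelled CD40 KO and 111 in WT) had endothelial lists of 10.6 and 8.74 CPM, against 9.80 and 14.4 CPM in class barcodes without one, and lipid-associated lists of 19379 and 43327 CPM, against 8393 and 22350 CPM.

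A finer clustering gave 21 clusters, from which 5 are shown, chosen after their values were seen. It separated a state of cluster 6 with little *Mertk* from a state with more. These states did not cover the cluster: in WT they held 12 and 286 *Mertk* UMIs, against 632 in all of cluster 6. In the library labelled CD40 KO they held 18 and 889, against 1122. The other cells of cluster 6 fell in other finer clusters and are not described. Cells led by *Plac8* and *Ly6c2* (278 barcodes in the library labelled CD40 KO and 128 in WT) had 5.26 CPM (3.12 to 8.32) and 11.8 CPM (6.11 to 20.7) of *Mertk* and 5.26 and 3.94 CPM of *Gas6*, levels near those of neutrophil-like cells, but 21.1 and 18.7 CPM of *Pros1*. Cells led by *Areg*, *Cxcl3* and *Met* (831 and 415 barcodes) had 45.6 CPM of *Mertk* in the library labelled CD40 KO and 42.8 CPM in WT, and 53.9 and 60.7 CPM of *Gas6*. For *Mertk* and *Gas6* the intervals of these states lay apart in both libraries, while for *Pros1* they overlapped. *Axl* had 7.31 CPM (4.73 to 10.8) in *Plac8* and *Ly6c2* cells of the library labelled CD40 KO and 24.6 CPM (15.9 to 36.4) in those of WT, from 25 UMIs in each.

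Cluster 3 also divided. Cells led by *Fcrls* and *Selenop* (115 barcodes in the library labelled CD40 KO and 611 in WT, 54.1% of them from cluster 3) carried the most *Mertk* of these 5 states, 137 CPM (121 to 155) and 113 CPM (106 to 120), and the most *Gas6*, 144 and 129 CPM. Their *Ifit3* level was 20.03 CPM in the library labelled CD40 KO and 30.1 CPM in WT, against 346 and 644 CPM in cells led by *Ifit3* and *Rsad2*. Those interferon-response-like cells (108 and 214 barcodes) had 50.02 CPM (39.7 to 62.3) of *Mertk* in the library labelled CD40 KO and 68.7 CPM (59.2 to 79.2) in WT, and 51.3 and 61.8 CPM of *Axl*. *Mertk* was thus higher in *Fcrls* and *Selenop* cells and *Axl* higher in *Ifit3* cells, with intervals apart in both libraries. No fixed marker list led in *Fcrls* and *Selenop* cells, and they were not named. Another state was led by *Rgs1* and *Plk2* (167 and 465 barcodes, 58.9% of them from cluster 3). Its log2 ratios were −0.68 (−1.06 to −0.31) for *Mertk*, −1.28 (−2.25 to −0.42) for *Pros1* and 0.08 (−0.31 to 0.45) for *Gas6*. *Pros1* in this state thus differed in sign from cluster 3 as a whole (0.47).

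*Gas6* in the *Ifit3* cells was 18.1 CPM (interval 12.1 to 26.0) in the library labelled CD40 KO and 62.5 CPM (53.5 to 72.5) in WT, a log2 ratio of −1.78 (−2.41 to −1.21), from 29 and 172 UMIs. In MHC class II cells with *Ccr2* (222 and 1026 barcodes) it was 8.90 CPM in the library labelled CD40 KO and 23.3 CPM in WT (−1.39, −2.02 to −0.82). In *Fcrls* and *Selenop* cells it was within counting error of WT (0.15, −0.04 to 0.35). *Pros1* there was 40.1 CPM (interval 31.4 to 50.3) in the library labelled CD40 KO and 25.4 CPM (22.2 to 28.8) in WT, and *Axl* 31.4 CPM (23.8 to 40.6) and 47.9 CPM (43.6 to 52.6).

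**Figure D4:**
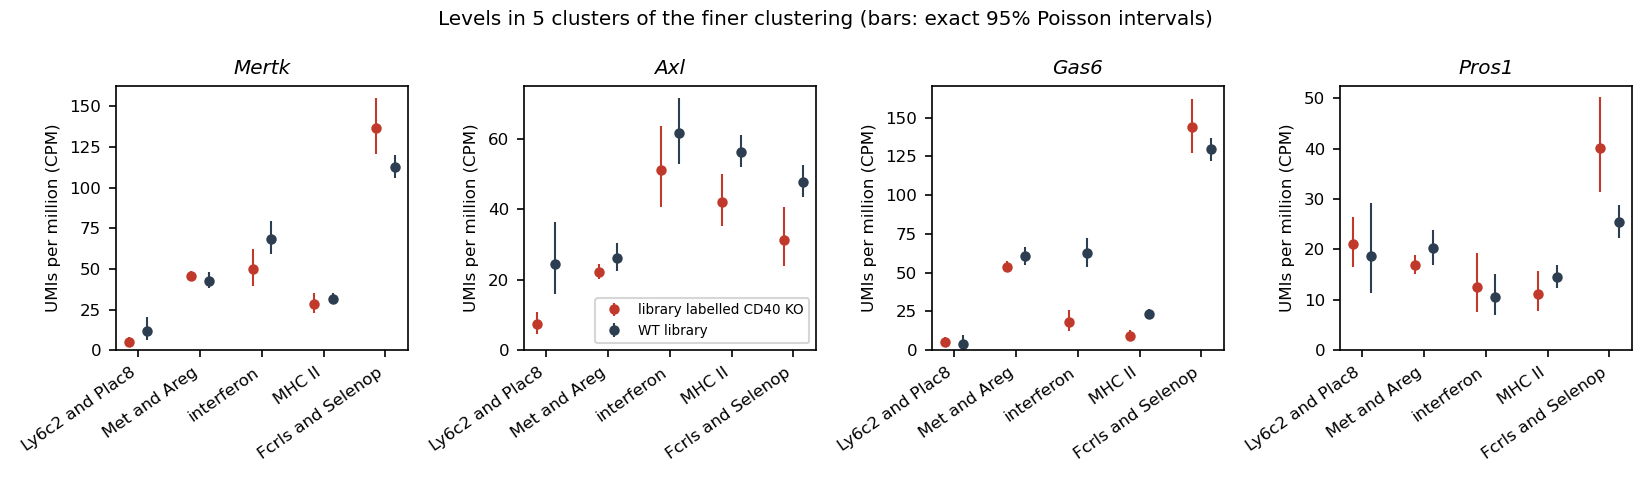
Levels (y axis, CPM) of *Mertk*, *Axl*, *Gas6* and *Pros1* in 5 clusters of the finer clustering, named by leading genes (x axis), in the library labelled CD40 KO (red, left) and the WT library (dark blue, right), with exact 95% Poisson intervals. *Mertk* and *Gas6* are lowest in *Ly6c2* and *Plac8* cells and highest in *Fcrls* and *Selenop* cells in both libraries.

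Receptor and ligand were sought in the same cells after thinning. In the class, *Gas6* was seen in 23.9% (18.7 to 29.7) of barcodes with a *Mertk* UMI and in 10.9% (9.48 to 12.4) of those without one in the library labelled CD40 KO, and in 20.9% (17.7 to 24.4) and 18.4% (17.1 to 19.7) in WT. In the lipid-associated-like macrophages the pair was 34.1% (20.1 to 50.6) and 29.5% (interval 23.6 to 35.9) in the library labelled CD40 KO, and 23.2% (18.7 to 28.2) and 22.1% (20.3 to 24.1) in WT. These intervals overlapped within each library. In cluster 6 they lay apart in the library labelled CD40 KO, at 20.2% (13.5 to 28.3) with and 7.92% (6.46 to 9.60) without a *Mertk* UMI, and overlapped in WT, at 18.2% (10.3 to 28.6) and 11.3% (9.05 to 13.97). In cluster 3 they overlapped, at 25% (11.5 to 43.4) and 8% (4.20 to 13.6) for the library labelled CD40 KO, and 17.2% and 14.4% in WT.

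Over 24 profiles of cluster and library with at least 50 barcodes, the genes most like each member were picked from 8066 genes by the Pearson correlation of log2(CPM + 1), given as a description. The profiles share 2 libraries and are not independent. *Mertk* was nearest to *Lonrf3* (0.89), *Rnf144b* (0.88) and *Bcar3* (0.88), and *Axl* to *Tmem176a* (0.96), *Ddah1* (0.92) and *Eif3e* (0.91). *Gas6* was nearest to *Tmem205* (0.94), *Keap1* (0.93) and *Hadh* (0.93), *Pros1* to *Lima1*, *Fut11* and *Rora* (0.95 each), and *Mfge8* to *Sptbn1* (0.90), *Cyb5r3* (0.88) and *Apbb2* (0.88). *Tyro3*, at a mean of 0.820 CPM over the profiles, was nearest to *Pcdh9* (0.97), *Medag* (0.97) and *Gpr39* (0.96). Among the members, *Mertk* and *Axl* were unrelated over these profiles (−0.03), while *Pros1* and *Mfge8* were the closest pair (0.80).

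The wider efferocytosis pathway was followed through 88 genes in 9 lists, 68 of them measured in the class. Of these, 11 were at least 1.3-fold higher and 13 lower in the library labelled CD40 KO, against the 21.9% and 11% of all measured genes given above. The counts of single lists below stand beside the same shares, and with few genes per list they were not tested. The median log2 ratio over the lists was 0.07 in the class, 0.04 within lipid-associated-like macrophages and −0.09 within cluster 6.

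Other receptors of phosphatidylserine were mixed. Of 5 measured, *Havcr2*, which encodes the checkpoint receptor TIM-3, had 94.3 CPM in the library labelled CD40 KO and 43.4 CPM in WT (1.12, 1.05 to 1.19), and *Stab1*, a scavenger receptor, 214 and 286 CPM (−0.42). *Cd300lb* (−0.09) and *Cd300a* (−0.11) differed by less than 1.3-fold. The *Havcr2* difference was also seen within the lipid-associated-like macrophages (0.70) and cluster 6 (0.69), and the *Stab1* difference was 0.04 and −0.22 there.

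Bridging proteins outside the TAM system split both ways: 4 of the 7 measured were lower and 2 higher. *Lgals3*, which encodes galectin-3, had 2497 CPM in the library labelled CD40 KO and 4598 CPM in WT (−0.88), and *C1qc*, a chain of complement C1q, 795 and 1175 CPM (−0.56). *Thbs1*, which encodes thrombospondin-1, had 1384 and 580 CPM (1.26), and *Edil3*, an MFGE8 relative, 19.8 and 3.75 CPM (2.41). *Edil3* passed the 10 CPM floor only through its level in the library labelled CD40 KO. The median of the list was −0.51 in the class, but −0.05 within lipid-associated-like macrophages and −0.22 within cluster 6. In these clusters *C1qc* stood at −0.06 and −0.27, *Lgals3* at −0.37 and −0.37, and *Thbs1*, a leading gene of cluster 6, at 0.68 and 0.66, while *Edil3* was measured only in cluster 6 (1.33). In the list of MFGE8 integrins and their partners, *Cd36* had 351 CPM in the library labelled CD40 KO and 631 CPM in WT (−0.85), *Itgb5* 128 and 204 CPM (−0.67), *Tgm2* 326 and 234 CPM (0.48) and *Itgav* 530 and 469 CPM (0.18). *Itgb5*, the integrin beta chain that pairs with the alpha-v chain, was also lower within the lipid-associated-like macrophages (−0.54) and cluster 6 (−0.72), while *Cd36* stood at −0.20 and −0.42 there and *Tgm2* at 0.19 and 0.30.

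In the vitamin K list, which gives GAS6 and protein S their lipid-binding form, 1 of 4 measured genes was lower: *Vkorc1*, the vitamin K epoxide reductase, had 19.9 CPM in the library labelled CD40 KO and 31.2 CPM in WT (−0.65), while *Calu* (−0.11), *Vkorc1l1* (0.23) and *Furin* (0.30) were within 1.3-fold. Within lipid-associated-like macrophages and cluster 6 *Vkorc1* stood at −0.45 and −0.39. In the list of shedding of MERTK and AXL from the cell surface, 1 of 6 was higher, the protease gene *Adam9* (83.1 and 52.2 CPM, 0.67), with *Adam10* at 0.33, *Adam17*, the protease known to cleave MERTK, at 0.03 and *Rhbdf2* at −0.06. *Adam9* stood at 0.80 and 0.54 in these clusters. These are transcript levels and say nothing of protease activity.

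Downstream of the receptors, 2 of 14 measured genes were higher and 2 lower, where 21.9% of all measured genes were higher and 11% lower. *Vav3*, a guanine nucleotide exchange factor, had 736 CPM in the library labelled CD40 KO and 459 CPM in WT (0.68). *Pik3r1* had 198 and 130 CPM (0.61), *Akt1* 72.7 and 103 CPM (−0.50) and *Pik3cd* 36.6 and 49.96 CPM (−0.45). Within lipid-associated-like macrophages and cluster 6, *Vav3* (0.32 and 0.35) and *Pik3r1* (0.32 and 0.27) were within 1.3-fold, *Akt1* stood at −0.40 and −0.59, and *Pik3cd* at −0.56 and −0.37. In the list of cytokine damping, 2 of 9 were higher, *Tnfaip3* (0.48) and *Ifnar1* (0.48), and *Ifnar2* (−0.12) and *Socs3* (−0.01) were the lowest. Within the same clusters *Tnfaip3* stood at 0.41 and 0.23 and *Ifnar1* at 0.27 and 0.30. Of the 12 transcription factors of TAM genes or of efferocytosis in the list, 2 were higher and 2 lower: *Nr1h3*, the liver X receptor alpha that is known to raise *Mertk*, had 24.7 CPM in the library labelled CD40 KO and 37.5 CPM in WT (−0.60, −0.70 to −0.50), and *Pparg* 44.8 and 60.9 CPM (−0.44), while *Ppard* (0.42) and *Nr3c1*, the glucocorticoid receptor (0.38), were the highest. Within lipid-associated-like macrophages and cluster 6, *Nr1h3* stood at −0.29 and −0.17, *Pparg* at −0.82 and −0.38, *Ppard* at 0.15 and −0.01 and *Nr3c1* at 0.11 and 0.20. In the list of signals that oppose or expose phosphatidylserine, *Sirpa*, the macrophage receptor for CD47, was lower (303 and 453 CPM, −0.58; −0.41 and −0.47 within these clusters), and *Ano6* (0.31) and *Tmem30a* (−0.02) were within 1.3-fold.

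**Figure D5:**
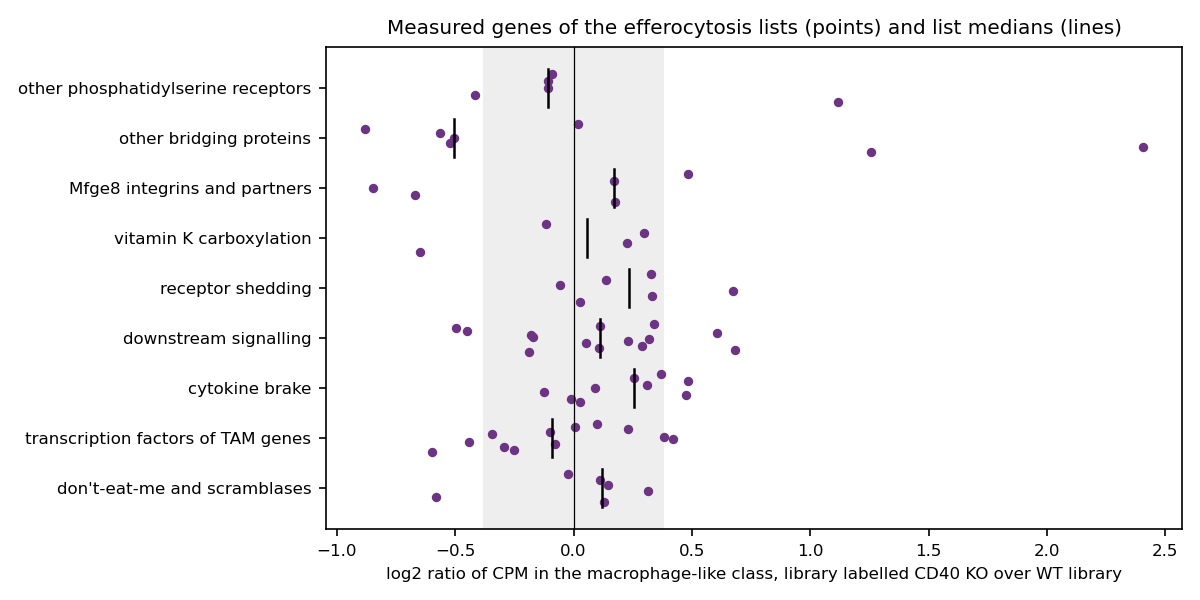
Log2 ratio in the macrophage-like class (x axis; library labelled CD40 KO over WT library) of the 68 measured genes of 9 efferocytosis lists (rows); points are genes, short vertical lines are list medians, and the grey band marks differences under 1.3-fold. The bridging proteins have the lowest median in the class (−0.51; −0.05 within cluster 7 and −0.22 within cluster 6), with *Thbs1* and *Edil3* far to the right.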

How the data were processed

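Per the file headers, Cell Ranger 7.0.1 produced the deposited UMI counts per gene and barcode of both libraries. The notes that the submitters gave on processing list Cell Ranger, STAR and the mm10 build, and do not say whether intronic reads were counted. A barcode was used if it had 1000 UMIs or more, at least 500 genes, and no more than 10% of its UMIs from mitochondrial genes. Scrublet's own threshold marked 0 and 33 barcodes, so the highest doublet scores were removed at 0.8% per 1000 barcodes (526 in the library labelled CD40 KO and 845 in WT). Barcodes were clustered with scanpy 1.11.5 (2000 variable genes, 30 components, 15 neighbours, Leiden resolution 0.6; 1.0 for the finer clustering), leaving out the 6 genes and *Cd40*. UMIs were summed per cluster and library and divided by the cluster's total (CPM). Levels have exact Poisson, ratios exact conditional and shares exact binomial (Clopper-Pearson) intervals. The ratio intervals were run on simulated independent Poisson counts. Those counts lack the clumping of UMIs in few barcodes, so the run checks the computation only and not the width of the intervals for these data. PCR duplicates are collapsed by UMI, but cells of 1 library are not replicates, so nothing was tested between genotypes. Named genes are the 6 members, the measured genes with the 2 highest and 2 lowest log2 ratios of each pathway list, and the 3 genes most like each member; genes naming a cluster or finer state were added. A gene that the rule for pathway lists also picks is not reported here. The members, marker lists and pathway lists were chosen with earlier results of these data known. Tried alternatives were another scaling, equal weights, filters, doublets, resolution, a gate on each barcode's own markers, thinning, fold limit and floor; those adding clusters to the class, and the gate without cluster 0, were chosen after seeing the data. Promoters were read from RefSeq's table, in which all 6 genes matched.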

Additional observations from a re-analysis of the deposited data

Results flagged for a closer look

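Within-cluster ratios of 3 ligands pointed in opposite directions in different clusters, and these differences between clusters were not tested. *Gas6* had a log2 ratio (library labelled CD40 KO over WT) of 0.27 in lipid-associated-like macrophages and of −0.86 in the MHC class II cluster. *Pros1* had 0.47 in cluster 3 and −0.63 in cycling-like macrophages. *Mfge8* had 1.19 in the MHC class II cluster and −1.57 in cluster 11, at mean levels under 10 CPM in both; it was seen in 15.7% of MHC class II barcodes in the library labelled CD40 KO, against 4.86% in WT, and 8 barcodes held 50% of its UMIs in cluster 11 of WT. In the finer clustering the MHC class II states were *Ccr2* cells (222 barcodes in the library labelled CD40 KO and 1026 in WT) and *Cd209a* cells (248 and 266), within which the *Mfge8* ratio was 0.52 (−0.58 to 1.53) and 0.43 (−0.10 to 0.96), intervals that include 0.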

How the results depend on the processing

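Under 12 alternatives for each gene, no log2 ratio past 1.3-fold changed sign. *Mertk* ranged from −0.61 to −0.20 and stayed past 1.3-fold in 7 of them, *Gas6* from −0.77 to −0.35 (11 of 12), *Mfge8* from −1.40 to −0.44 (12 of 12), *Axl* from −0.37 to 0.16 (0 of 12) and *Pros1* from −0.24 to −0.02 (0 of 12). Median-of-ratios scaling shifted every log2 ratio by −0.10, to −0.53 for *Mertk* and −0.77 for *Gas6*. With each barcode weighing the same *Mfge8* stood at −1.13. With equal cluster weights the ratios were −0.20 (*Mertk*), −0.17 (*Axl*), −0.35 (*Gas6*) and −0.44 (*Mfge8*). Without doublet removal they were −0.26 (*Axl*), −0.56 (*Gas6*) and −1.07 (*Mfge8*), and after thinning −0.37 (*Axl*) and −1.05 (*Mfge8*). Gating each barcode by its own markers gave −0.51 (*Mertk*) and −0.88 (*Mfge8*), and without cluster 0 −0.14 (*Axl*) and −0.93 (*Mfge8*). Adding cluster 0 to the class gave −0.61 (*Mertk*), 0.16 (*Axl*) and −0.75 (*Gas6*), and adding clusters 4 and 11 gave −0.18 (*Axl*) and −0.98 (*Mfge8*). The cause was not tested. The gate's levels in the library labelled CD40 KO and in WT were 41.9 and 59.7 CPM for *Mertk*, 28.9 and 30.03 CPM for *Axl*, 54.4 and 89.1 CPM for *Gas6* and 16.2 and 17.7 CPM for *Pros1*, and 17.7 CPM in WT for *Mfge8*. Thinning, by its construction, lowered the shares of barcodes with a UMI to 11.5% and 15% (*Mertk*), 5.40% and 6.89% (*Axl*), 12.4% and 18.8% (*Gas6*), 5.21% and 5.27% (*Pros1*) and 1.56% and 2.71% (*Mfge8*). Of the pathway genes, 5 were higher under the gate, 6 at a fold limit of 1.5 and 6 with cluster 0 added, against 11; 8 were lower with equal weights and 5 at a fold limit of 1.5, against 13. No paired analysis was possible because each genotype has 1 library, and leaving out a library leaves no comparison.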
